A study of Mus musculus with 4 samples.

Results

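The 10 genes described here are grouped as feedback brakes on the ERK pathway, although Dusp10 acts mainly on the stress kinases JNK and p38. They are 5 dual-specificity phosphatases (Dusp2, Dusp4, Dusp5, Dusp6 and Dusp10), 3 Sprouty proteins (Spry1, Spry2 and Spry4) and 2 Spred proteins (Spred1 and Spred2). They were taken by name, as genes paired with a single symbol in the array's gene table, and all 10 were found among the 19938 genes measured. RNA had been profiled on Affymetrix Mouse Gene 1.0 ST arrays in 2 kinds of proliferating mouse erythroid cells, with duplicate cultures, A and B, and 1 array each. MEL cells are a murine erythroleukemia line, here clone DS19 stably transfected with GATA-1 fused to the ligand-binding domain of the estrogen receptor (ER). They were grown in serum with puromycin. ES-EP are normal erythroid progenitors obtained by differentiating embryonic stem cells, kept in serum-free StemPro34 medium with erythropoietin (Epogen), IGF-1, dexamethasone and stem cell factor (SCF). Cell type, transgene and medium therefore changed together and cannot be told apart. The methods call the duplicates biological replicates, and the p-values measure the spread between these cultures only.

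ERK is the last kinase of a cascade that runs from receptor tyrosine kinases such as KIT, the SCF receptor, through RAS, RAF and MEK. In erythroid progenitors, signals of SCF and erythropoietin through this cascade are known to favor proliferation. Active ERK enters the nucleus, and among the genes it induces are several of its own inhibitors. DUSP proteins remove the activating phosphates from MAP kinases, Sprouty proteins act between the receptor and RAF, and Spred proteins bring the RAS inhibitor neurofibromin to the membrane.

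The marker lists differed between the cell types. All 7 erythroid markers measured lay above background in both cell types, 5 lower and 1 higher in MEL. Their summed linear signal was 14452 to 15117 in MEL against 22408 to 23802 in ES-EP. Slc4a1, the red cell anion exchanger, was 44.3-fold lower in MEL (log2 signal 5.93 and 5.82 in MEL against 11.25 and 11.44 in ES-EP), and Alas2, the first enzyme of erythroid heme synthesis, was 8.69-fold lower. Gata1, which the transgene may add to, was the one higher, at 12.38 and 12.34 in MEL against 11.15 and 11.29 in ES-EP. Background was set at the level that 95% of 1027 olfactory receptor genes did not exceed, 5.19 in MEL and 5.56 in ES-EP on the log2 scale. The summed linear signal of 4 megakaryocyte markers, all higher in MEL, was 1093 to 1185 in MEL against 231 in both ES-EP arrays, with Ppbp at background in both cell types. That of 5 mast cell markers, all lower in MEL, was 248 to 254 in MEL against 2726 to 2987 in ES-EP, although Cpa3 and Cma1 lay at background in both. The mast cell sum was carried by Ms4a2, a subunit of the IgE receptor, at 4.08 and 3.83 in MEL against 11.15 and 10.96 in ES-EP, and the megakaryocyte sum held Pf4, at 8.89 and 8.81 in MEL against 3.95 and 3.82 in ES-EP. Of the other marker lists, 4 of 5 pluripotent stem cell genes (2 of the 5 lower in MEL), 6 of 7 monocyte and neutrophil genes (3 lower), 2 of 3 lymphocyte genes (1 lower) and 1 of 4 fibroblast genes (1 higher and 3 lower) were at background in both. The part of these markers in the differences below was not tested.

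Among the 10 genes, most DUSP genes and the Sprouty genes stood on opposite sides. Outside the 10, Dusp1 and Dusp8 were lower in MEL, Dusp7 and Dusp9 were higher, and Dusp16 was not called. Dusp2, Dusp5, Dusp6 and Dusp10 were higher in MEL, by 1.97-fold to 2.74-fold, and Spry1, Spry2 and Spry4 were lower in MEL, by 1.71-fold to 3.27-fold. Dusp4 lay at background in both cell types, and the Spred genes differed by 1.14-fold or less. In all, 8 of the 10 genes passed the limma test (adjusted p under 0.05), 4 higher and 4 lower in MEL, the fourth lower one being Dusp4. Over all genes 63.8% passed it, 20.5% higher and 43.2% lower in MEL, so that a call on its own set these genes little apart. The 2 groups of arrays did not overlap for 9 of the 10 genes, against 81.8% of all genes. A difference of at least 2-fold that also passed the test was found for 10% of all genes. It was measured for 5 of the 10, namely Dusp5, Dusp6, Dusp10, Spry1 and Spry2. Of these, only Dusp5 and Spry1 stood clear of background in both cell types. Dusp6 in ES-EP and Spry2 in MEL lay below background, and Dusp10 in ES-EP lay 0.07 above it on the log2 scale. The median difference (MEL minus ES-EP) was 0.11 on the log2 scale for the 10 genes and -0.15 for all genes. In RNA of whole cultures, fewer expressing cells and less RNA per cell cannot be told apart.

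**Figure D1:**
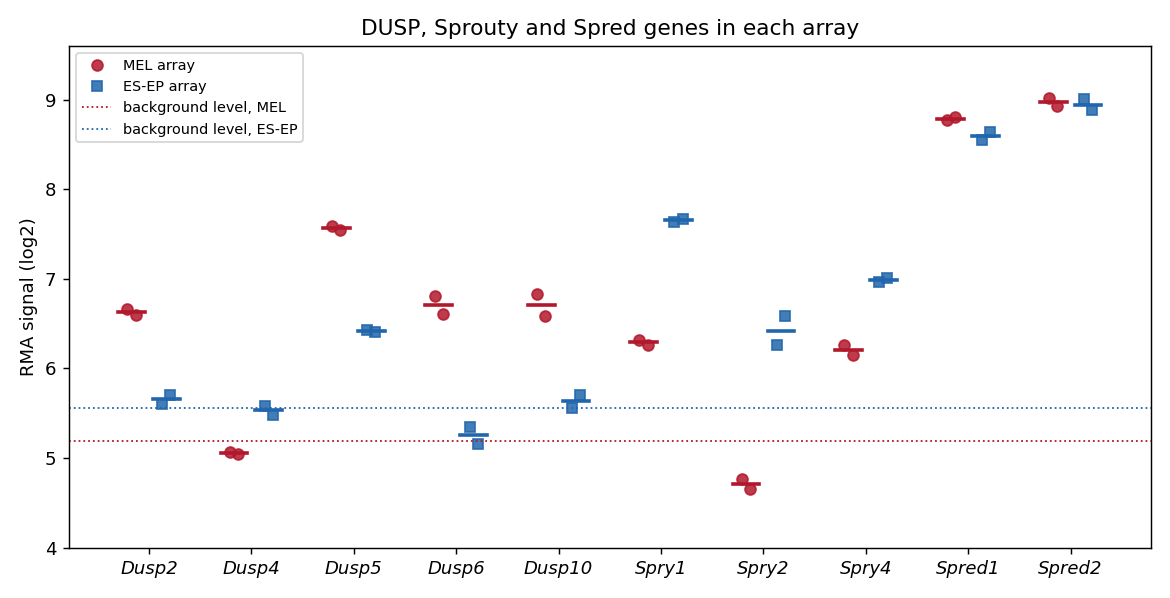
RMA signal (log2) of the 10 genes in each array. Points are single arrays, bars are means over the 2 arrays of a cell type, and the dotted lines are the background levels of 5.19 in MEL and 5.56 in ES-EP. Dusp2, Dusp5, Dusp6 and Dusp10 stood higher in MEL, Spry1, Spry2 and Spry4 lower, and the arrays overlapped for Spred2.

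The starts of 4 of these genes are shown because they had the widest differences in each direction, Dusp6 and Dusp5 among the genes higher in MEL and Spry2 and Spry1 among those lower. PU.1, the factor the study is about, belongs to the ETS family, whose members share the core GGAA, and ERK acts on ETS factors of the TCF group that bind beside the serum response factor SRF at a CArG box. The sequences are the 250 bases before the annotated start (RefSeq, GRCm38.p6), written 5′ to 3′ in the direction of the gene, at chr19:53528895-53529144 (+ strand) for Dusp5, chr10:99262981-99263230 (+) for Dusp6, chr3:37639697-37639946 (+) for Spry1 and chr14:105896820-105897069 (- strand) for Spry2. Capitals mark GGAA or its complement TTCC and, in Dusp5, also the CArG boxes.
Dusp5: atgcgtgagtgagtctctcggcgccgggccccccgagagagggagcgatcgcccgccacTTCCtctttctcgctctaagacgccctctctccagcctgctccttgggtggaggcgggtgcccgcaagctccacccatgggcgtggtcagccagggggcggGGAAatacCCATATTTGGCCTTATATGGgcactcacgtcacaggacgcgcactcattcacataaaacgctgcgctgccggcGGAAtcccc
Dusp6: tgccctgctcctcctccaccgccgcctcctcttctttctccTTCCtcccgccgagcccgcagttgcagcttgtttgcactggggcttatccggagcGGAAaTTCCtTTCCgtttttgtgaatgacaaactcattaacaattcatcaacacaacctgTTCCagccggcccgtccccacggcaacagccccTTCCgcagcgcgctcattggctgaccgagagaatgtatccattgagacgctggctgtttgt
Spry1: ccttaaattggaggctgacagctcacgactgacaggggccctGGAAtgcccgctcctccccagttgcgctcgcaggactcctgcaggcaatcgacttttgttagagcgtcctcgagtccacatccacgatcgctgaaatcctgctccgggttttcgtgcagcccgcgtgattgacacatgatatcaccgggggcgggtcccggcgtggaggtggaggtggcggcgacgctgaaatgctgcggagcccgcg
Spry2: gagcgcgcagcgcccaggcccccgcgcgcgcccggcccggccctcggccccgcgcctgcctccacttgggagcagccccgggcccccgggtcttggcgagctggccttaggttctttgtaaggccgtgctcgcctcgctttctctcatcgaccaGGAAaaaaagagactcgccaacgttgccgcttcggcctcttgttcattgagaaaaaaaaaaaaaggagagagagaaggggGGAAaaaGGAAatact

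Dusp5 held 2 CArG boxes side by side, 82 to 73 and 72 to 63 bases before the start, with an ETS core 90 to 87 bases before it. A CArG box was found in 1.47% of 32851 promoter windows of this length and, of the 8 genes in the table used, in Dusp5 alone. ETS cores numbered 6 in Dusp6, 3 in Dusp5, 3 in Spry2, 3 in Dusp2, 1 in Spry1, 4 in Spred1, 7 in Spred2 and 0 in Dusp10. With 93.4% of all windows holding at least 1, the core was found among genes higher in MEL and genes lower in MEL alike. Dusp6 held a GATA site (GATAA or its complement, in 22.6% of windows), 165 to 161 bases before the start. The cAMP response element TGACGTCA (1.55% of windows) and the AP-1 site TGANTCA (6.75%) were found in none of the 8. Both strands were searched, no motif match overlapped another, and a match is not a measured site. Promoters of Dusp4 and Spry4 were not used here.

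**Figure D2:**
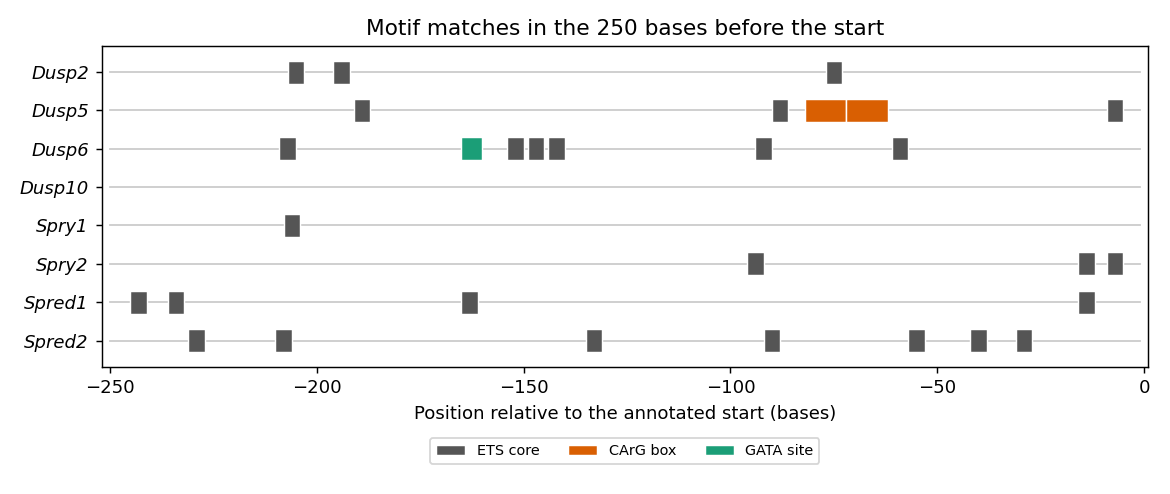
Motif matches on either strand in the 250 bases before the start of 8 of the 10 genes, placed by distance from the annotated start in bases. Grey blocks are ETS cores, orange blocks CArG boxes and the green block a GATA site. The 2 CArG boxes of Dusp5 adjoin each other, and Dusp10 held none of these motifs.

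Dusp6 (MKP-3) is a cytoplasmic phosphatase with high selectivity for ERK. Its log2 signal was 6.81 and 6.61 in MEL against 5.34 and 5.16 in ES-EP. The ES-EP arrays were both below background, so that the size of the difference, 1.46 ± 0.10 (SE, n = 2 each, adjusted p = 5.02e-07), rests on background, and the 2.74-fold is not exact. Dusp5, a nuclear phosphatase of ERK, gave 7.59 and 7.54 in MEL against 6.43 and 6.41 in ES-EP. Both groups lay above background and replicates were close, with SDs of 0.03 in MEL and 0.01 in ES-EP, and the difference of 1.14 ± 0.08 (SE) was 2.21-fold (adjusted p = 5.86e-07).

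Dusp10 (MKP-5) acts mainly on the stress kinases JNK and p38 rather than on ERK. It gave 6.83 and 6.59 in MEL against 5.56 and 5.71 in ES-EP, 2.11-fold higher in MEL (1.07 ± 0.10 on the log2 scale, adjusted p = 6.25e-06). Dusp2 (PAC-1), a nuclear phosphatase known from activated lymphocytes, gave 6.67 and 6.59 in MEL against 5.61 and 5.70 in ES-EP, 1.97-fold higher (0.97 ± 0.08, adjusted p = 3.06e-06). For both genes the MEL arrays stood clear of the ES-EP arrays. The ES-EP means lay 0.07 (Dusp10) and 0.10 (Dusp2) above background on the log2 scale, so these folds are inexact too. Dusp4 (MKP-2), a nuclear relative of Dusp2, gave 5.07 and 5.05 in MEL against 5.58 and 5.48 in ES-EP. These means were under the background level of each cell type, and the difference of -0.47 ± 0.08 (adjusted p = 0.000545) is given as a value only.

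All 3 Sprouty genes listed were lower in MEL. Spry2, which binds GRB2 and the ubiquitin ligase CBL after growth factor stimulation, gave 4.77 and 4.66 in MEL against 6.26 and 6.58 in ES-EP. Both MEL arrays were below background, and the ES-EP arrays differed from each other by more than those of any other of the 10 genes (SD 0.23). The difference of -1.71 ± 0.11 (SE, n = 2 each, adjusted p = 2.83e-07) was 3.27-fold, a size that rests on background. Spry1, a close relative of Spry2, had signals above background in both cell types. It gave 6.31 and 6.27 in MEL against 7.63 and 7.67 in ES-EP, 2.57-fold lower in MEL (-1.36 ± 0.08, adjusted p = 1.44e-07). Spry4 gave 6.27 and 6.15 in MEL against 6.96 and 7.00 in ES-EP, 1.71-fold lower in MEL (-0.78 ± 0.08, adjusted p = 1.82e-05). Sorted by difference over all genes, Spry1 and Spry4, measured above background in both cell types, stood at percentiles 2.48 and 7.38, and Dusp5, measured likewise, at 95.3.

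The Spred genes had signals far above background in both cell types. Spred1, whose loss in humans causes a syndrome resembling mild neurofibromatosis, gave 8.77 and 8.81 in MEL against 8.55 and 8.64 in ES-EP. The arrays did not overlap, but the difference of 0.19 ± 0.08 (95% interval 0.01 to 0.37) missed the threshold (adjusted p = 0.0613). It passed under each rescaling of the arrays, with an adjusted p of 0.0299 by quantiles, 0.00428 by median centring and 0.0151 by cyclic loess. Spred2 gave 9.02 and 8.93 in MEL against 9.01 and 8.88 in ES-EP, and the groups overlapped. Its difference was 0.03 ± 0.09 (95% interval -0.16 to 0.22, adjusted p = 0.754). The dimmer probe set of Spred2 gave 8.53 and 8.43 in MEL against 8.12 and 8.18 in ES-EP, 1.26-fold higher in MEL (adjusted p = 0.0281 over all probe sets), so that the 2 probe sets of this gene disagree.

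The 7 remaining family members measured were 5 DUSP genes, Spry3 and Spred3. Together with them, 17 family genes divided into 7 higher, 7 lower (Dusp4 and Spry3 among them, both at background) and 3 not called. Of all genes, 63.8% passed the test, 20.5% higher and 43.2% lower in MEL. The cytoplasmic ERK-selective class, Dusp6, Dusp7 and Dusp9, was higher in MEL in 3 of 3 cases, a description of 3 genes only. Dusp9 gave 7.96 and 7.88 in MEL against 6.46 and 6.36 in ES-EP (2.85-fold, adjusted p = 9.32e-08) and Dusp7 gave 8.37 and 8.43 in MEL against 7.72 and 8.01 in ES-EP (1.45-fold, adjusted p = 0.001). These signals were above background in both cell types, unlike that of Dusp6.

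The other phosphatase classes were mixed. Of the inducible nuclear class, Dusp2 and Dusp5 were higher and Dusp1 and Dusp4 lower. Dusp1 (MKP-1), an immediate early gene that dexamethasone also induces in many cells, gave 7.96 and 7.92 in MEL against 9.17 and 9.35 in ES-EP, 2.50-fold lower in MEL (adjusted p = 4.42e-07). Of the JNK and p38 selective class, Dusp10 was higher and Dusp8 lower. Dusp8 gave 6.48 and 6.45 in MEL against 7.94 and 8.17 in ES-EP, a difference of -1.59 on the log2 scale (adjusted p = 1.47e-07). Its other probe set was 2.92-fold lower in MEL, with the MEL signal under the background level. Dusp16 gave 7.93 and 7.85 in MEL against 7.67 and 7.88 in ES-EP, and did not pass the test (0.11, 95% interval -0.10 to 0.32, adjusted p = 0.324), although it did after median centring (0.26, adjusted p = 0.0298). Spred3 gave 6.72 and 6.59 in MEL against 5.85 and 5.62 in ES-EP, 1.89-fold higher (adjusted p = 1.79e-05) with the ES-EP mean 0.18 above background, whereas Spry3 was below background in all 4 arrays (3.95 and 3.87 in MEL against 4.32 and 4.04 in ES-EP, difference -0.27, adjusted p = 0.0391).

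**Figure D3:**
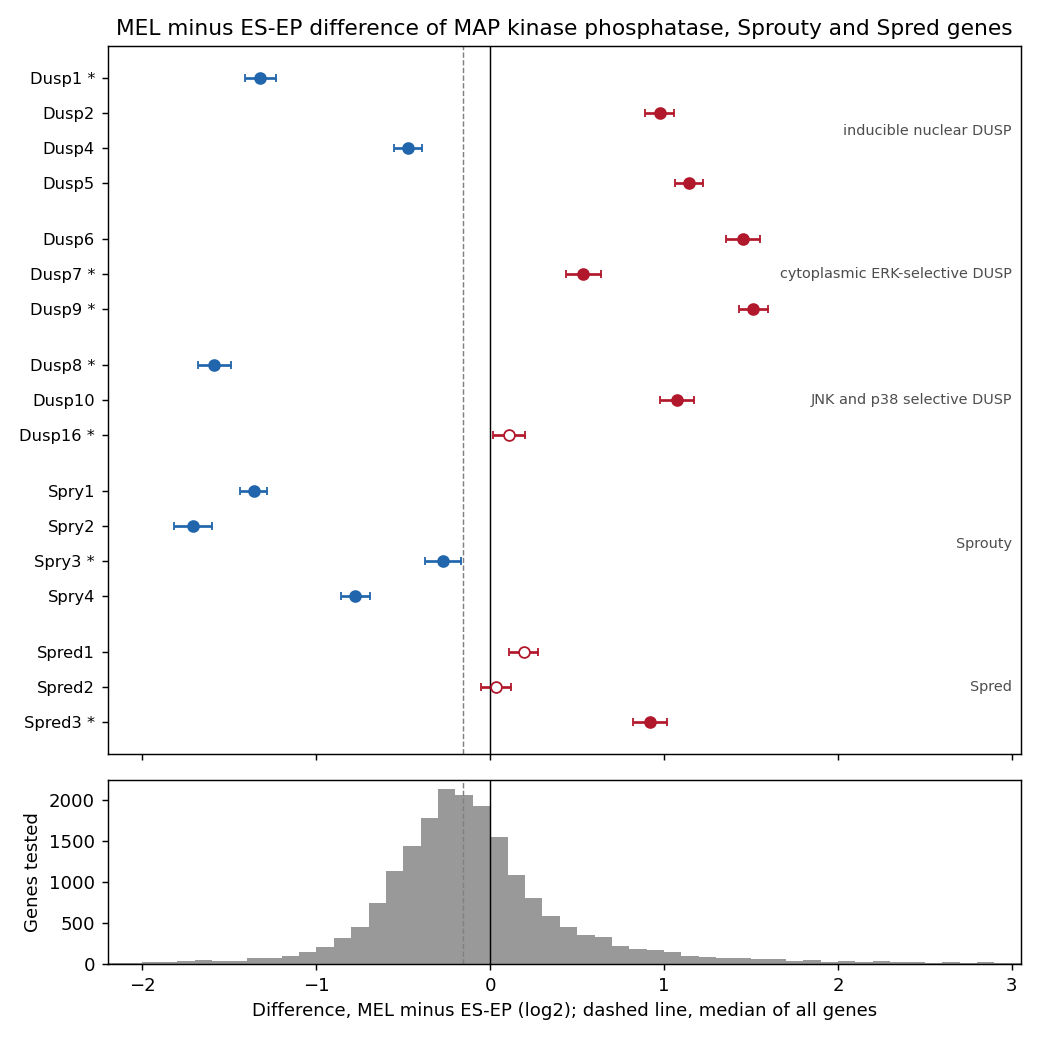
Difference (log2, MEL minus ES-EP) of the 17 family genes by class, above the histogram of all 19938 genes, some of which fall beyond the axis. Points are estimates with the SE, filled where the limma test was passed, red above 0 and blue below it, and asterisks mark the 7 genes outside the list of 10. The 3 cytoplasmic ERK-selective phosphatases lay above 0 and the 4 Sprouty genes below it (Spry3 at background and not called after rescaling), with the dashed line at the median of all genes, -0.15.

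The kinases that these brakes act on were compared next. Of the 5 genes of the ERK cascade analysed here, 4 were higher and 1 was lower in MEL, with a median of 0.72 against -0.15 for all genes. All 5 passed the test, as did 63.8% of all genes (20.5% higher and 43.2% lower in MEL). The RAS gene Nras was 1.89-fold (11.25 and 11.29 in MEL against 10.30 and 10.40 in ES-EP, adjusted p = 4.60e-06), the MEK gene Map2k2 1.70-fold and the RAF gene Araf 1.65-fold higher in MEL. Map2k1, encoding the other MEK, was 1.47-fold higher, and Braf, named because it was the only one lower, was 1.40-fold lower in MEL. Among 7 JNK and p38 kinases 2 were higher, 2 lower and 3 not called (median 0.10). The share called, 57.1%, was below the 63.8% of all genes. After median centring 4 of these kinases were higher and 1 lower. Mapk8 (JNK1) was 1.71-fold and Mapk11 (p38β) 1.46-fold higher in MEL and Mapk12 (p38γ) 1.44-fold lower. Neither of these p38 folds is exact, since the Mapk11 signal in ES-EP (5.54 and 5.59) and the Mapk12 signal in MEL (5.26 and 5.17) lay at about background. Mapk10, the neuronal JNK, was at background in both cell types (difference -0.24).

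Genes that ERK induces were mixed. Among 15 of them 4 stood higher in MEL, 6 stood lower and 5 missed the threshold. The share called, 66.7%, was close to the 63.8% of all genes, and the median of -0.15 was that of all genes. After median centring 5 stood higher and 2 lower. The immediate early genes Ier2 and Fos were 1.97-fold and 1.95-fold lower in MEL (Fos 5.72 and 5.73 in MEL against 6.68 and 6.69 in ES-EP). Egr1, also an immediate early gene, was 1.78-fold higher in MEL (7.26 and 7.44 in MEL against 6.48 and 6.55 in ES-EP), and so was Phlda1, by 1.87-fold, with its ES-EP signal at background. Etv4 and Etv5, ETS factors that respond to ERK in many tissues together with Dusp6 and the Sprouty genes, gave differences of 0.26 (adjusted p = 0.0315) and -0.34 (adjusted p = 0.0293). Both were named after their values had been seen. Etv5 has 2 probe sets, of which only the brighter is given here. The 2 genes lower after median centring were Ier2 and Fos, so that Etv5 lost its call there. Without MEL replicate B, 6 of the 15 genes passed the test in place of 10.

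Of 16 other brakes and Sprouty partners, 8 were higher in MEL, 3 were lower and 5 were not called, with a median of 0.31. The share called was 68.8%, against 63.8% of all genes. The split depended on the scaling, with 13 higher and 3 lower after median centring, 12 and 3 after cyclic loess, and 10 and 3 after quantile normalization. The adaptor Dok2, which recruits RasGAP, was 5.31-fold higher in MEL (8.40 and 8.17 in MEL against 5.89 and 5.87 in ES-EP, adjusted p = 4.99e-09), with the ES-EP mean 0.32 above background. The EGF receptor inhibitor Errfi1 and the RasGAP Rasa2 were 2.26-fold and 1.97-fold higher. Nf1, encoding the neurofibromin that Spred proteins recruit, was 1.71-fold higher in MEL, with 8.57 and 8.50 in MEL against 7.60 and 7.91 in ES-EP. Nf1 was chosen after its values had been seen. Lrig1, a membrane protein that lowers the level of several receptor tyrosine kinases, was 5.04-fold lower in MEL (5.39 and 5.52 in MEL against 7.70 and 7.88 in ES-EP, adjusted p = 6.11e-09), with the MEL mean 0.26 above background.

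**Figure D4:**
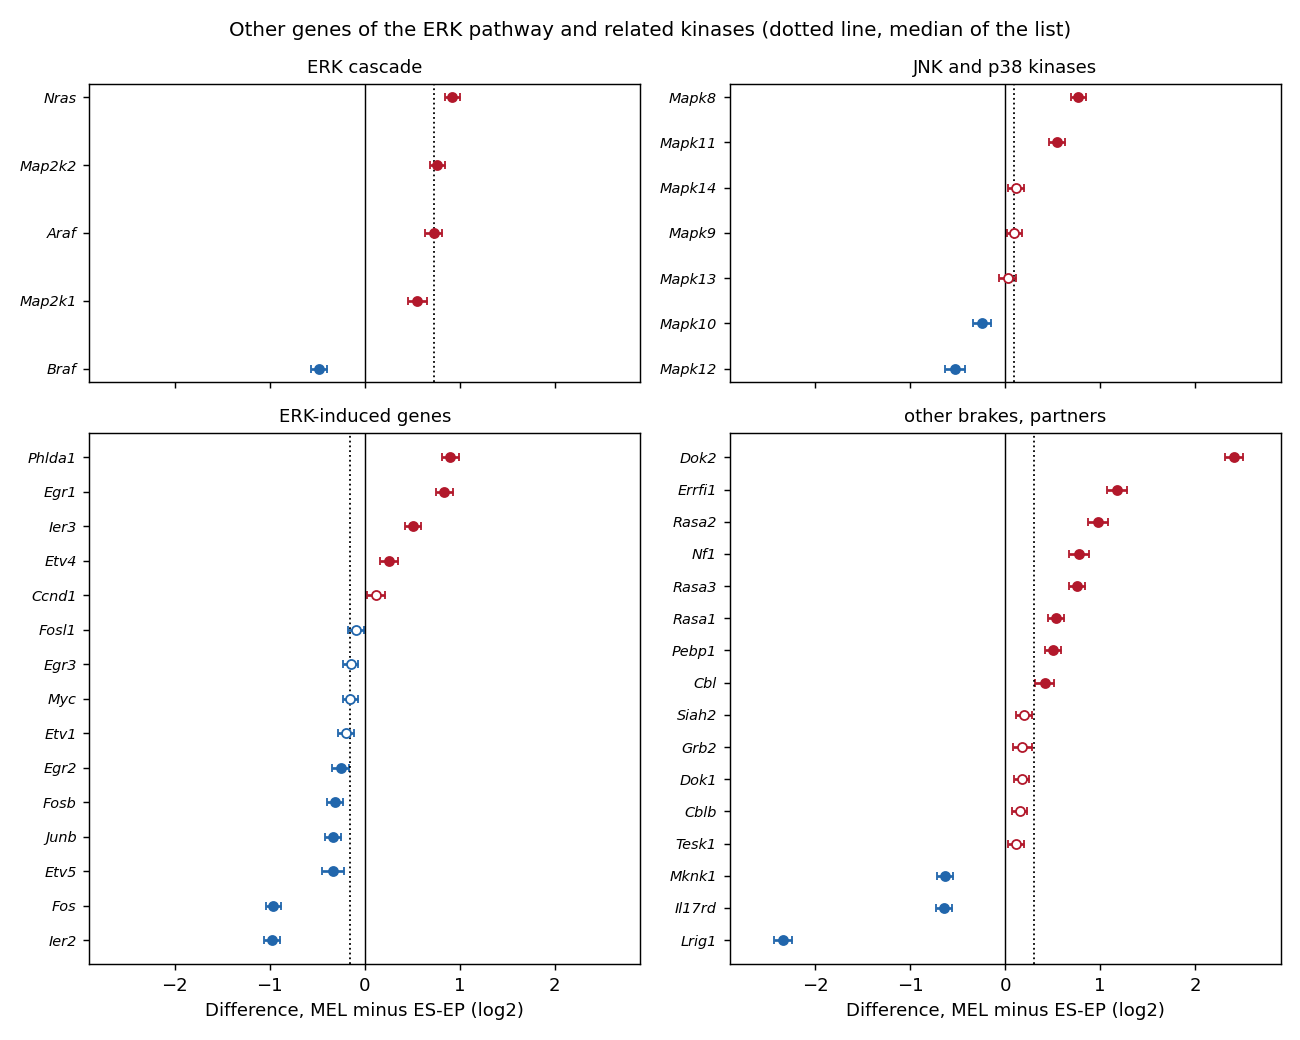
Difference (log2, MEL minus ES-EP) of each gene of the 4 other lists, with the SE. Filled points passed the limma test, red above 0 and blue below it, open points did not, and dotted lines are list medians, from -0.15 for ERK-induced genes to 0.72 for the ERK cascade. Dok2 and Lrig1 had the widest differences of these lists, at 2.41 and -2.33.

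Median centring moved these differences together, whereas quantile normalization moved them unequally. With the latter Dusp5 stayed at 1.14, while Dusp4, at background, went from -0.47 to -0.26. Array medians were 5.68 and 5.67 in MEL against 5.81 and 5.84 in ES-EP, and the median difference over all genes was -0.15, against -0.01 after median centring. Measured from the median of all genes, the differences of Dusp6, Dusp5, Dusp10 and Dusp2 were 1.61, 1.30, 1.23 and 1.13, and those of Spry2, Spry1 and Spry4 were -1.55, -1.21 and -0.62. After median centring calls over all genes divided into 5757 higher and 5644 lower in MEL, as against 4096 and 8622 with the deposited values. The 10 genes then divided into 5 higher and 4 lower, Spred1 being the one added.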

How the data were processed

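The deposited values were log2 signals, which the authors obtained from the arrays by RMA in GeneSpring GX, 1 column per array. Their distributions were not equal between arrays, which affects differences between the cell types. The number of arrays limits the precision. Of 35557 probe sets, 21789 had 1 gene symbol (21698 matched to the GRCm38.p6 gene table by Entrez number), and those with several symbols (1621) or unnamed here (12147) were left out. A gene was represented by its brightest probe set, judged by the mean of the 4 arrays. Differences, MEL minus ES-EP, were tested in limma 3.58.1 under R 4.3.3 (lmFit, eBayes, two-sided, no block term) with Benjamini-Hochberg adjustment over 19938 genes at 0.05. On simulated data with 200 changed genes, this step recovered 28.4% of changes of 0.5 on the log2 scale, 82.1% of those of 1 and 95.5% of those of 2. In the measured data 63.8% of genes were called, so the simulated setting differs and cannot show how reliable these calls are. ± is the SE of a difference as moderated by eBayes, which draws the variance of each gene toward that of all genes. It can therefore be larger than the SDs of a single gene would give. With 2 arrays a group, 3 splits exist and an exact permutation p cannot be smaller than 0.333. Of the 1027 olfactory receptor genes that set the background, 461 were called lower and 41 higher in MEL. The genes and lists were chosen with earlier results of these data known, so that counts over them are descriptions. Named were the 10 genes, 7 further family members, up to 4 called genes per list by size of difference, marker genes, and genes said to be chosen afterwards. Alternatives were 3 rescalings, 2 filters on mean signal, averaged probe sets, a test over every probe set, the culture letter as a block, eBayes with trend and robust, and omission of each array. Same-letter arrays did not deviate together (r = -0.04, across genes). With 1 such pair of deviations, this value cannot show whether same-letter cultures were handled together, and the labels do not say. Promoters came from RefSeq.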

Additional observations from a re-analysis of the deposited data

How the results depend on the processing

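Dusp2, Dusp5, Dusp10, Spry1 and Spry4 kept their direction and passed the test under all 13 alternatives, and Dusp4, Dusp6 and Spry2 under the 12 that tested them, since a filter at the median of mean signal removed these 3. Spred1 passed in 5 of 13 (adjusted p 0.00428 to 0.211) and Spred2 in none. The difference of Spred2, not called, changed sign without MEL replicate A (-0.010) and without ES-EP replicate B (-0.028), and ran from -0.028 to 0.093 when 1 array at a time was left out. Of the 10 genes 8 passed with the culture letter as a replicate block, as without it. The median difference of the 10 genes, 0.11, was 0.14 after quantile normalization, 0.26 after centring on medians, 0.18 after cyclic loess, 0.19 with the filter at the median of mean signal (7 genes) and 0.19 with the mean of probe sets. That filter left 7117 called genes of 9969, 6 of 8 ERK-induced genes and 1 of 4 JNK and p38 kinases. Leaving out 1 array at a time gave 6 to 8 called ERK-induced genes. Spry3 and Mapk10, at background in both cell types, lost their call under each rescaling. The causes were not tested. With 2 arrays a group, and signals of Dusp2, Dusp4, Dusp6, Dusp10, Spry2, Spred3, Phlda1, Mapk11, Mapk12, Dok2 and Lrig1 at or near background in a cell type, fold sizes of these genes are inexact.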
